A study of Mus musculus with 3 samples.

Results

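The IkB family comprises the inhibitors that hold NF-kB dimers in check, and 6 of its genes (Nfkbia, Nfkbib, Nfkbie, Nfkbiz, Nfkbid and Bcl3) were taken by symbol from the 55536 annotated genes measured in chromatin-associated RNA of mouse macrophages. The cells were macrophages differentiated from bone marrow (strain C57BL/6J, primary cells) and sampled after 10 min with 100 ng/ml Lipid A, the lipid anchor of bacterial lipopolysaccharide that activates the receptor TLR4. Total RNA of the chromatin fraction, in which nascent and partly spliced transcripts are enriched, was sequenced after depletion of ribosomal RNA. There was 1 group of 3 biological replicates, and no unstimulated library was used here, so no value below is a response to Lipid A. Starting RNA was 1 µg for replicate 1, 250 ng for replicate 2 and 500 ng for replicate 3, so amount and replicate cannot be told apart. One donor entry is shared by all 3 in the labels, so p-values and SDs may measure partly technical spread.

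In resting cells the classical inhibitors IkB-alpha (Nfkbia), IkB-beta (Nfkbib) and IkB-epsilon (Nfkbie) keep NF-kB in the cytoplasm through their ankyrin repeats. Signalling from TLR4 activates the IkB kinases, and the phosphorylated inhibitors are ubiquitinated and degraded, which frees NF-kB to enter the nucleus. Nfkbia is itself a rapidly induced NF-kB target, so that its resynthesis closes a negative feedback loop, and Nfkbie acts in a similar loop. The atypical members IkB-zeta (Nfkbiz), IkB-NS (Nfkbid) and Bcl-3 (Bcl3) work in the nucleus, where they bind mainly p50 or p52 dimers at promoters and can activate or repress selected genes.

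Annotated genes received 15698066, 16005795 and 14386725 estimated counts in replicates 1, 2 and 3. All 8 macrophage markers examined were detected, with a summed TPM between 559 and 1105 per library. None of 16 markers of T cells, B cells, neutrophils, fibroblasts and erythroid cells was detected, with a summed TPM between 0.56 and 1.43, and 9 of them had no count.

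The parts of the gene models that carry the comparison of retained introns are printed first. GENCODE annotates 5 retained_intron transcripts in 4 of the genes and none in Nfkbib or Nfkbiz. The sequences are shown because these transcripts differ greatly in how much intron they hold. Each is given 5′ to 3′ on the gene's strand in mm10, with intronic bases in capitals and exonic bases in lower case.
Nfkbia-202 (chr12:55491759-55491810, minus strand), all the intron it holds: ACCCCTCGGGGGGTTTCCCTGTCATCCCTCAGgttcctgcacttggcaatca
Nfkbid-204 (chr7:30425836-30425989, plus strand), the whole intron: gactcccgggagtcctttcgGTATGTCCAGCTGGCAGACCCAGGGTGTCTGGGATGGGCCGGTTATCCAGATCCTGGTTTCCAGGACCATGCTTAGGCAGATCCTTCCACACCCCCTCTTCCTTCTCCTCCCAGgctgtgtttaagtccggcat
Nfkbie-202 (chr17:45558578-45558637, plus strand), 5′ end of the intron: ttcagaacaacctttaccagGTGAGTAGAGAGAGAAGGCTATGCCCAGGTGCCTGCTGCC
Nfkbie-202 (chr17:45559168-45559227, plus strand), 3′ end of the intron: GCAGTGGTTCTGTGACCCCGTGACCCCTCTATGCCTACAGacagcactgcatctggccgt
Bcl3-202 (chr7:19812494-19812553, minus strand), 3′ end of the intron: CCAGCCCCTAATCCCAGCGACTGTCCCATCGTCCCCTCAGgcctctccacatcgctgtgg
Bcl3-206 (chr7:19811680-19811739, minus strand), 3′ end of the intron: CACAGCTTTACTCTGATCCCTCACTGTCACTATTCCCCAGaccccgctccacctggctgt

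Of these, Nfkbie-202 and Nfkbid-204 hold an intron from end to end, starting with GT and ending with AG. Nfkbie-202 (3006 bases) spans nearly the whole gene and keeps all 610 bases of intron 2 of the coding transcript Nfkbie-201. Nfkbid-204 (509 bases) is a short internal model that keeps the 114-base intron 7 of Nfkbid-203. In the other 3 the first exon begins inside an intron and runs through its 3′ splice site, so the 5′ splice site is not in the model. Nfkbia-202 (701 bases) holds only the last 32 of 521 bases of intron 1. Bcl3-202 (694 bases) holds 320 of the 7533 bases of intron 2 and Bcl3-206 (502 bases) holds 190 of the 705 bases of intron 3. Among all 21421 annotated retained_intron transcripts of genes with a coding transcript, the median held 350 intronic bases and 30.3% held a whole intron.

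**Figure D1:**
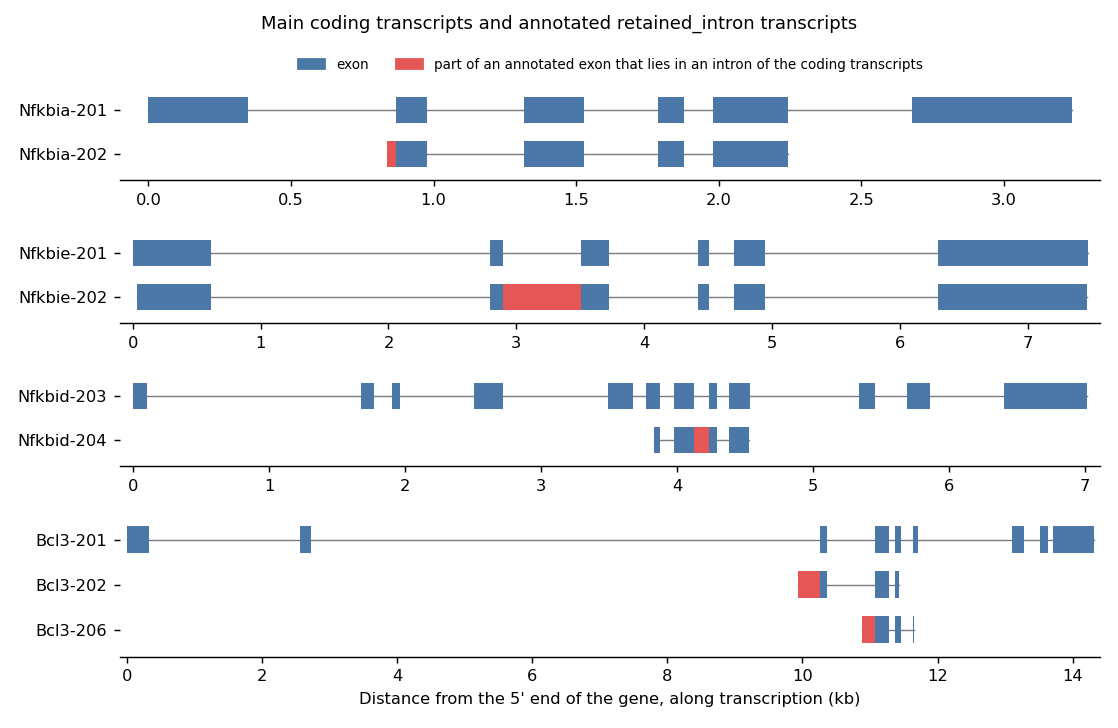
Exons (blue) of the main coding transcript of 4 genes and of their annotated retained_intron transcripts, drawn to scale by distance in kb from the 5′ end of the gene, with a separate axis for each gene; red marks bases that lie in an intron of the coding transcripts. Nfkbie-202 and Nfkbid-204 hold a whole intron of 610 and 114 bases, and Nfkbia-202 holds 32 intronic bases at its 5′ end.

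All 6 genes were detected, counted as a TPM (the usual length-normalised transcript abundance) of 1 or more in every library of the gene table. This held for 24.4% of all annotated genes and 46.1% of the protein-coding ones. Nfkbia had the highest mean level and Nfkbib the lowest. Every gene was highest in replicate 1. In such bulk RNA, more cells with a transcript and more transcript per cell cannot be told apart.

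Among the classical inhibitors, Nfkbia (ENSMUSG00000021025.8, chr12:55489410-55492647, minus strand) had a TPM of 78.3 in replicate 1, 15.4 in replicate 2 and 15.0 in replicate 3 (mean 36.2 ± 36.4, SD, n = 3). Replicate 1 thus stood far above the other two, which were nearly equal, and the SD exceeded the mean. Its mean lay at the 84.8th percentile of detected genes, but within each library it lay at the 92.9th, 66.0th and 69.9th, so the high rank rested on replicate 1. Nfkbie (ENSMUSG00000023947.8, chr17:45555703-45563169, plus strand) had 6.50, 3.61 and 3.54 TPM in replicates 1, 2 and 3 (4.55 ± 1.69, SD, n = 3), at the 28.7th percentile. Nfkbib (ENSMUSG00000030595.15, chr7:28758251-28767512, minus strand), whose protein is the more slowly degraded classical inhibitor, had 4.49, 2.33 and 2.55 TPM (3.12 ± 1.19, SD, n = 3), at the 18.0th percentile. It was also the most thinly covered of the 6, with 51 to 78.5 estimated counts per library. The 5′ end of its gene model overlaps Sirt2 on the opposite strand by 778 bases, and Sirt2 had 49.6 ± 6.45 TPM (SD, n = 3). The sources do not say whether counting was stranded, so values are uncertain where the genes overlap. Among the Nfkbib transcripts only Nfkbib-203 reaches into Sirt2, and it had 0 counts in every library of the first transcript table and 23.5, 0 and 0 in the second.

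Among the nuclear members, Nfkbid (ENSMUSG00000036931.15, chr7:30421732-30428746, plus strand) had a TPM of 27.9, 10.6 and 9.46 in replicates 1, 2 and 3 (16.0 ± 10.4, SD, n = 3). Of this, 12.3, 2.55 and 1.15 TPM were on the short retained_intron transcript Nfkbid-204. Bcl3 (ENSMUSG00000053175.17, chr7:19808462-19822770, minus strand) had 20.5, 9.91 and 10.1 TPM (13.5 ± 6.04, SD, n = 3). Nfkbiz (ENSMUSG00000035356.17, chr16:55811375-55838899, minus strand) had 16.3, 7.61 and 6.50 TPM (10.1 ± 5.34, SD, n = 3). By mean TPM these 3 lay at the 66.5th, 61.9th and 52.9th percentiles of detected genes, between Nfkbia above and Nfkbie and Nfkbib below. Within replicates 1, 2 and 3 the percentiles were 76.2, 54.1 and 56.8 for Nfkbid and 68.7, 52.0 and 58.9 for Bcl3. Those of Nfkbiz were 62.5, 43.6 and 45.2. The percentiles of Nfkbie and Nfkbib were likewise highest in replicate 1. On the log2(TPM + 1) scale the median of the nuclear members exceeded that of the classical ones by 1.52, 1.24 and 1.20 in the 3 libraries (1.32 ± 0.17, SD, n = 3), where the classical median is that of Nfkbie. The difference was 2.06 ± 0.27 in the second transcript table, where the classical median is that of Nfkbib. It was 0.71 in counts scaled to library size, which take no account of gene length.

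Neighbours in the order of mean TPM were compared within each library on the log2(TPM + 1) scale, which understates the fold of low genes. Nfkbia exceeded Nfkbid by 0.86 ± 0.52, Bcl3 exceeded Nfkbiz by 0.41 ± 0.14, Nfkbiz exceeded Nfkbie by 0.94 ± 0.24 and Nfkbie exceeded Nfkbib by 0.42 ± 0.061 (SD, n = 3), each in 3 of 3 libraries. Without replicate 1 the excess of Nfkbia over Nfkbid was 0.56. In scaled counts, which are not per length, Bcl3 minus Nfkbiz was -1.40. The TPM of a gene sums all its transcripts, and in the first transcript table retained_intron transcripts held 58.3% ± 5.62 of that of Bcl3. The coding Bcl3-201 had 7.24, 3.67 and 4 TPM by replicate, below the coding Nfkbiz-204 at 14.31, 7.1 and 5.81 in every library. Nfkbid and Bcl3 did not differ beyond their spread, with a difference of 0.14 ± 0.26 and Nfkbid higher in 2 of 3 libraries. An exact permutation test by sign flips (two-sided) gave p = 0.25 for each of the first 4 pairs, the smallest p that 3 libraries allow, and p = 0.75 for Nfkbid against Bcl3. Over the 9 such tests made here the Benjamini-Hochberg adjusted values were 0.281 and 0.75, and none could have reached 0.05.

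The order also depended on the table. The authors derived the second transcript table directly from the reads and an index, and the gene table from transcriptome alignments, per the deposited readme files. Summed per gene, it gave Bcl3 a TPM of 45.7, 37.2 and 33.7 in replicates 1, 2 and 3 (38.9 ± 6.15, SD, n = 3), above Nfkbid in every library (28.2 ± 14.5). It also placed Nfkbib (5.75 ± 2.37) above Nfkbie (4.08 ± 1.24) in every library. Nfkbia remained the highest on average, at 210.2, 35.1 and 32.4 TPM (92.6 ± 101.9), but only replicate 1 put it above Bcl3. Its levels in replicates 2 and 3 lay just below those of Bcl3. Much of the Bcl3 TPM in this table fell on short non-coding transcripts. Bcl3-204 (460 bases) held 48.6% ± 1.79 of it and Bcl3-205 (346 bases) 15.3% ± 1.23. The coding Bcl3-201 had 7.18, 5.02 and 5.17 TPM by replicate, against 96.7, 21.8 and 24.1 for the coding Nfkbia-201. In this table too the coding Nfkbiz-204 lay above Bcl3-201 in every library, at 20.9, 10.9 and 8.6 TPM.

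**Figure D2:**
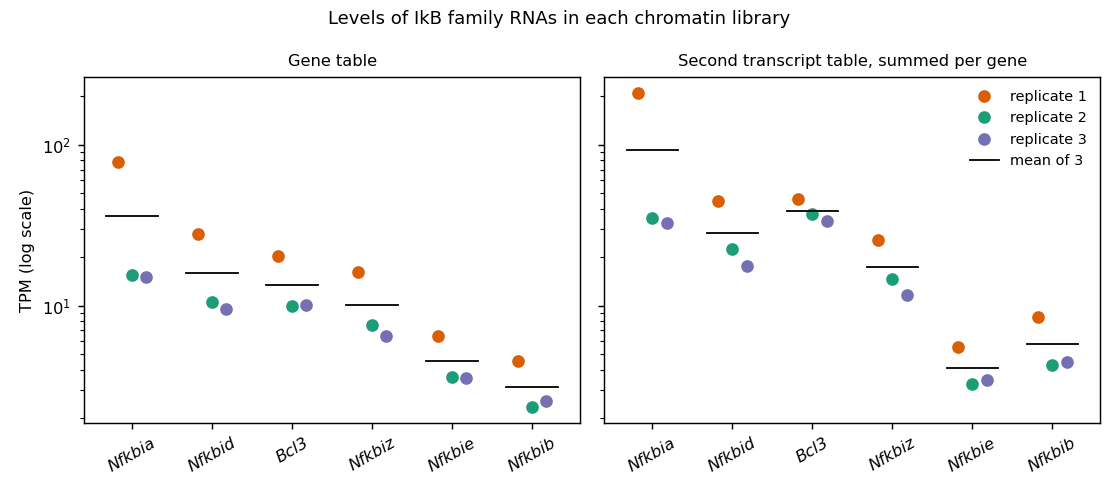
TPM (log axis) of the 6 genes in each of the 3 libraries, from the gene table (left) and from the second transcript table summed per gene (right); points are libraries and bars are means of 3. Replicate 1 is the highest point for every gene in both tables, and Nfkbia spans 15.0 to 78.3 TPM in the gene table. TPM in the gene table was higher in replicate 1 in general (median log2 ratio 0.28 over all genes tested).

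The excess of replicate 1 was compared with that of other genes on counts normalised to TMM-adjusted library size (scaled CPM), which aligns the bulk of genes between libraries. For Nfkbia this gave 93.0 scaled CPM in replicate 1, 21.2 in replicate 2 and 24.9 in replicate 3, so replicate 1 was 4.03-fold above the mean of the other two (log2 ratio 1.99, at the 99.9th percentile of 14894 genes tested). The log2 ratio was 0.84 for Nfkbiz, from 48.5, 26.7 and 27.0 scaled CPM, and 0.73 for Nfkbid, from 29.3, 15.8 and 19.2. The ratios of Bcl3, Nfkbie and Nfkbib were 0.65, 0.55 and 0.49. The lowest of the 6, that of Nfkbib, lay at the 93.2nd percentile.

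All 6 genes were highest in replicate 1, as were 36.9% of all genes tested, and the median log2 ratio was 0.69 over the 6 and -0.0069 over all genes. No test was made, because a single library stood against 2 of the same group. For Nfkbia the excess was present in both annotated transcripts of the first transcript table. The coding transcript Nfkbia-201 had 1405, 355 and 336 estimated counts and Nfkbia-202 had 43.1, 4.71 and 4.06.

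Spread between libraries was measured by edgeR as the tagwise biological coefficient of variation (BCV). It estimates the relative SD of a gene beyond counting error, but is drawn towards the values of other genes. The BCV of Nfkbia was 0.407, at the 99.7th percentile, where its scaled CPM were 46.3 ± 40.4 (SD, n = 3). The other members lay between 0.184 and 0.224, and the median over all genes was 0.169. Without replicate 1 the BCV of Nfkbia was 0.122, and the common value of all genes in that fit was 0.138. From replicates 2 and 3 alone such a value draws heavily on other genes. The scaled CPM of Nfkbia in these libraries were 21.2 and 24.9, so its wide spread rested on replicate 1.

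Nfkbia had no close counterpart in this pattern. Among 8395 genes with a mean of at least 10 scaled CPM, the distance between centred log2 scaled CPM profiles over the 3 libraries was smallest for Ccrl2 (0.32), an atypical chemokine receptor. It was followed by Ppp1r15a (0.40), a regulatory subunit of the phosphatase that acts on eIF2-alpha, and by mt-Co1 (0.44), a mitochondrially encoded subunit of cytochrome c oxidase. Rn7s1 and Rn7s2, copies of the 7SL RNA of the signal recognition particle, had identical values to each other and a distance of 0.47. The scaled CPM of Ccrl2 were 38.6, 11.3 and 13.6 by replicate, and those of mt-Co1 were 569.4, 203.8 and 192.8. With only 3 libraries many genes share a profile. Within a distance of 0.25 there were 1086 genes for Nfkbie, 494 for Bcl3, 310 for Nfkbid, 153 for Nfkbiz and 0 for Nfkbia.

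Kinds of RNA that reside mainly outside the chromatin and had a member among the genes nearest to Nfkbia were also high in replicate 1. Their excess follows partly from that choice. The 37 mitochondrial genes took 0.0926% of the estimated counts in replicate 1, 0.0407% in replicate 2 and 0.0343% in replicate 3. Rn7s1 and Rn7s2 together took 0.614%, 0.242% and 0.194%. Their part in the levels of the IkB genes was not tested.

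The pathway around the inhibitors was described with 27 genes in 5 lists. Of these, 26 were detected, 13 were highest in replicate 1 and the median log2 ratio was 0.089. Among the Rel subunits, which the inhibitors bind, 3 of 5 were highest in replicate 1 with a median ratio of 0.37. Nfkb1, which encodes p105 and p50, had the highest level of these at 57.1 ± 10.3 TPM and Relb the lowest at 12.8 ± 5.39 (SD, n = 3). The ratios of the 5 were 0.58 for Relb, 0.51 for Nfkb2, 0.37 for Rela, 0.088 for Nfkb1 and -0.20 for Rel, so Relb and Nfkb2 lay within the range of the IkB genes and Rel was lowest in replicate 1.

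Among the IkB kinases and related kinases 2 of 5 were highest in replicate 1, with a median ratio of 0.042. Ikbke, a kinase related to the IkB kinases, had 308 ± 65.9 TPM and Ikbkg, the regulatory subunit NEMO, had 22.7 ± 2.62 TPM. Of the ubiquitin ligase that marks phosphorylated IkB, 3 of 5 genes were highest in replicate 1, with a median ratio of 0.14, and levels ran from 5.67 ± 0.321 TPM for the adaptor Skp1a to 44.0 ± 14.9 TPM for the scaffold Cul1.

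Of 5 other genes whose products bind IkB or NF-kB, 1 was highest in replicate 1, with a median ratio of -0.22. Nkiras2, which encodes a small Ras-like protein that binds classical IkB proteins, was the highest of them at 14.1 ± 2.65 TPM, and the repressor Nkrf was below the detection limit at 0.94 ± 0.227 TPM. Among 7 other feedback inhibitors 4 were highest in replicate 1, with a median ratio of 0.12. Tnip2 had the highest level of these at 52.8 ± 7.20 TPM and Tnip3 the lowest at 15.4 ± 4.61 TPM (SD, n = 3 throughout). Tnfaip3, which encodes the deubiquitinase A20, had 74.7, 57.8 and 46.6 scaled CPM and a ratio of 0.51, within the range of the IkB genes. In TPM the ratios of the 6 IkB genes ran from 0.76 for Nfkbib to 2.33 for Nfkbia, and the median over all genes was 0.28 on that scale.

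**Figure D3:**
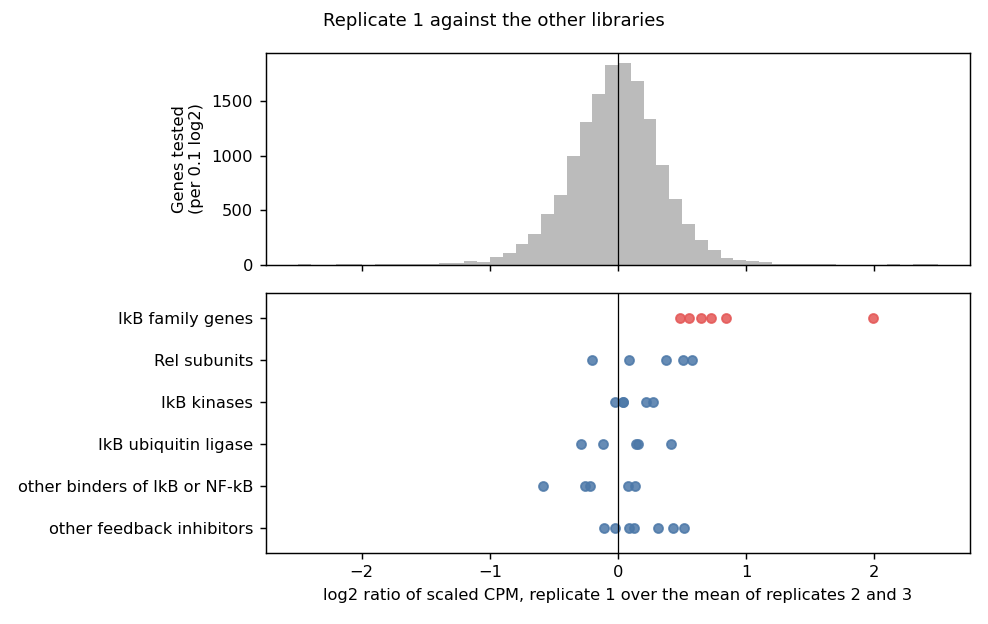
Top, number of tested genes per 0.1-wide bin of the log2 ratio of scaled CPM in replicate 1 over the mean of replicates 2 and 3 (ratios beyond 2.5 in either direction are placed in the end bins); bottom, the same ratio for each IkB family gene (red) and each gene of 5 pathway lists (blue). The 6 IkB genes lie between 0.49 and 1.99, with Nfkbia farthest to the right.

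Retained-intron share was taken as the percentage of a gene's TPM that fell in transcripts annotated as retained_intron. Its median was taken per library, over genes with such a transcript and a TPM of at least 1 in that library. It was 44.8%, 49.2% and 45.8% in replicates 1, 2 and 3 (46.6 ± 2.27, SD, n = 3). The IkB genes spread widely around this value in the first transcript table. The share was 75.8% ± 21.5 for Nfkbie, 58.3% ± 5.62 for Bcl3, 26.8% ± 16.1 for Nfkbid and 4.96% ± 2.50 for Nfkbia. A mean share of at least 50% was reached by 2 of the 4. The same held for 44.3% of 6523 genes with such a transcript and a TPM of at least 1 in all 3 libraries. This is no difference to read. Percentiles below were taken over the same 6523 genes. The first transcript table was used unless stated otherwise.

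Nfkbie had a share of 82.6%, 93.1% and 51.7% in replicates 1, 2 and 3, above the median of all genes in 3 of 3 libraries by 29.2 ± 20.4 percentage points. Replicate 3 was the low one. The estimated counts behind it were 213, 166 and 87.2 for Nfkbie-202 against 35.7, 9.73 and 64.8 for the coding Nfkbie-201. The standard deviation that the authors' table gives for read assignment was 10.3, 8.29 and 11.0 counts for Nfkbie-202 and 14.1, 7.52 and 17.7 counts for Nfkbie-201, which is large against the counts of the latter. The second table gave 74.0%, 85.0% and 47.9%, with the same library lowest. Because Nfkbie-202 contains nearly all exons of the gene and a whole intron, unspliced precursor RNA and a stable transcript with this intron cannot be told apart from these tables.

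Nfkbid had a share of 44.1%, 24.1% and 12.2%. The difference from the median of all genes was -0.75, -25.0 and -33.7 points (-19.8 ± 17.1, SD, n = 3), so replicate 1 lay practically at the median. The mean difference was -12.9 without replicate 3 and -29.3 without replicate 1. With the median taken over genes with any TPM above 0, not all 3 libraries lay below it, and the exact permutation p was 0.5. In the second table the share was 37.3%, 22.8% and 19.2%, so replicate 1 was highest in both. Since Nfkbid-204 is short, its weight depended on the unit. By estimated counts it held 53.1, 12.4 and 5.63 counts, or 6.12% ± 4.91 of the gene.

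Nfkbia had a share of 7.83%, 3.70% and 3.34%, a difference from the median of all genes of -41.6 ± 4.30 points, and lay at the 2.38th percentile. In the second table it was 54.0%, 37.8% and 25.7% (39.2% ± 14.2). Only replicates 2 and 3 lay below that table's median (44.4% ± 1.56), with a mean difference of -5.28 points. The estimated counts for Nfkbia-202 were 1316, 194 and 105 in the second table, against 43.1, 4.71 and 4.06 in the first. The rise in share from one table to the other, 34.2 points, was at the 98.8th percentile of all genes, whose middle 50% lay between -8.76 and 5.72. The 2 tables thus disagreed on a transcript that shares 669 of its 701 bases with Nfkbia-201 and lacks 909 of the bases of that mRNA. Its only other bases are the 32 intronic ones printed above.

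Bcl3 moved the other way. Its share was 51.9%, 62.5% and 60.5% in the first table, above the median of all genes in 3 of 3 libraries by 11.7 ± 4.03 points, and between 20.0% and 21.8% in the second, below that table's median in every library. The change of -37.4 points was at the 0.859th percentile. The counts of Bcl3-202 were 52.9, 42.6 and 32.6 in the first table and higher in the second, at 67.7, 79.9 and 61.7. The difference was larger for Bcl3-204, a non-coding transcript of 460 bases that starts inside intron 1, with 2.36, 0 and 0 counts in the first table and 128.9, 145.3 and 114.0 in the second. The exact sign-flip permutation test gave p = 0.25, the smallest possible, for the difference from the median of all genes in each of the 4 genes in the first table.

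**Figure D4:**
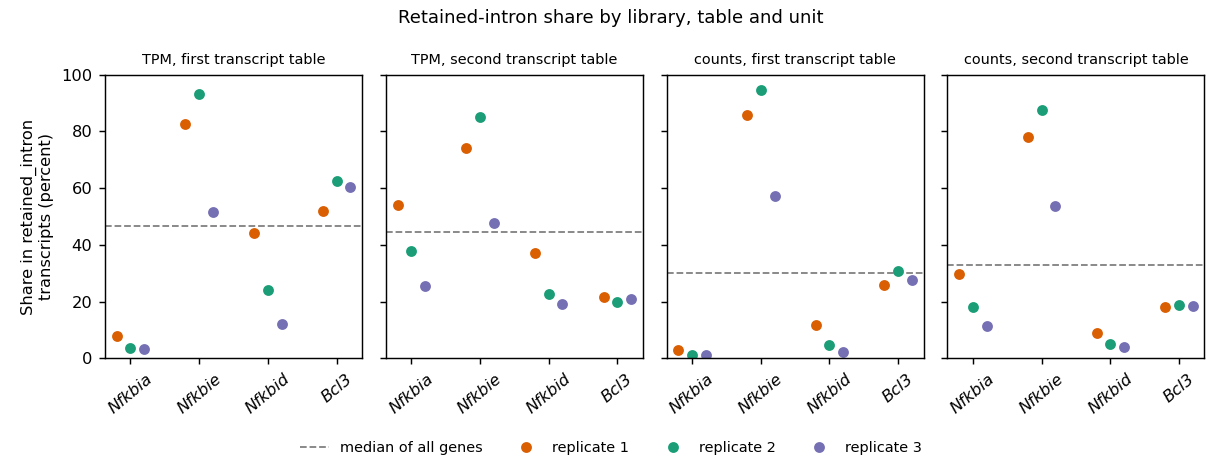
Percentage of a gene's TPM (2 left panels) or estimated counts (2 right panels) in retained_intron transcripts, for 3 libraries in the first and second transcript table; the dashed line is the mean over libraries of the median of all genes. Nfkbie has the highest mean in every panel, Nfkbia lies at 3.34% to 7.83% in the first panel and at 25.7% to 54.0% in the second, and all 3 Bcl3 points lie above the line in the first panel alone.

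Annotated start sites split the nuclear members further. Nfkbiz has an upstream start (chr16:55838899) and a start inside intron 2 of the longer models (chr16:55822138), used by the coding transcript Nfkbiz-204. The downstream start took 91.9%, 94.7% and 92.0% of the estimated counts of Nfkbiz in the first table (92.9% ± 1.61, SD, n = 3) and 89.1% ± 2.40 in the second. The 4 upstream transcripts shared the other 7.12% ± 1.61 and 10.9% ± 2.40. By counts the libraries and the tables thus gave nearly the same split between downstream and upstream. By TPM they did not, as Nfkbiz-204 held 90.2% ± 2.72 in the first table and 76.9% ± 4.32 in the second. Among the upstream transcripts the non-coding Nfkbiz-205 (1391 bases) held 1.72% ± 0.902 of the counts in the first table and 8.66% ± 1.89 in the second. Its mean share of the TPM was 4.83% and 21.3%. The coding models of the 2 starts also differ by few bases. Of the 3627 bases of Nfkbiz-204, 3604 are shared with the upstream transcript Nfkbiz-201 (4115 bases), and the other 23 are the last bases of intron 2, read through into exon 3. They are printed 5′ to 3′ in mm10, with the intronic bases in capitals and the start of exon 3 in lower case.
Nfkbiz-204 (chr16:55822096-55822138, minus strand), its 5′ end: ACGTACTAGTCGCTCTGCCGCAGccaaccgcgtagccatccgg
The share of the downstream start thus rests on these 23 bases and on how few reads fell in the first 2 exons, and initiation there and RNA with intron 2 unspliced cannot be told apart from these tables.

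Nfkbid has 3 annotated coding starts, at chr7:30421732, chr7:30422406 and chr7:30423275. The first table gave them 41.9% ± 6.64, 2.16% ± 3.74 and 49.8% ± 9.26 of the counts, whereas the second gave them 31.7% ± 1.62, 37.2% ± 4.64 and 25.0% ± 1.29 (SD, n = 3). The middle start, that of Nfkbid-202, had 0, 0 and 17.0 counts in the first table and 417, 375 and 267 in the second. The read-assignment standard deviation of Nfkbid-201, which uses the third start, was 19.3 to 25.8 counts of 113 to 210. These tables therefore did not fix which start of Nfkbid was used.

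For Bcl3 the main start, at chr7:19822770, took 69.5% ± 2.74 of the counts in the first table and 49.4% ± 2.64 in the second. The start inside intron 1 took 0.312% ± 0.541 and 26.5% ± 2.17. By TPM the main start, that of Bcl3-201, took 37.3% ± 2.09 in the first table and 14.8% ± 1.19 in the second. The antisense gene Gm16174 lies within the Bcl3 locus (chr7:19816553-19818625, plus strand) and had 20, 10 and 7 counts in the gene table but 123, 151 and 101 in the second table. The other antisense gene there, Gm16175, had 0, 2.6 and 0 counts and then 9, 18.6 and 10.7. With the strandedness of counting unknown, values of Bcl3 that rest on intronic sequence are uncertain.

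For Nfkbib, 61.6% ± 2.27 of the counts were assigned to the coding transcript Nfkbib-202 and 38.4% ± 2.27 to Nfkbib-201 in the first table (SD, n = 3). The second table gave 71.6% ± 4.31 and 23.9% ± 6.51, with 13.3% in Nfkbib-203 in replicate 1 and 0 in replicates 2 and 3.

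**Figure D5:**
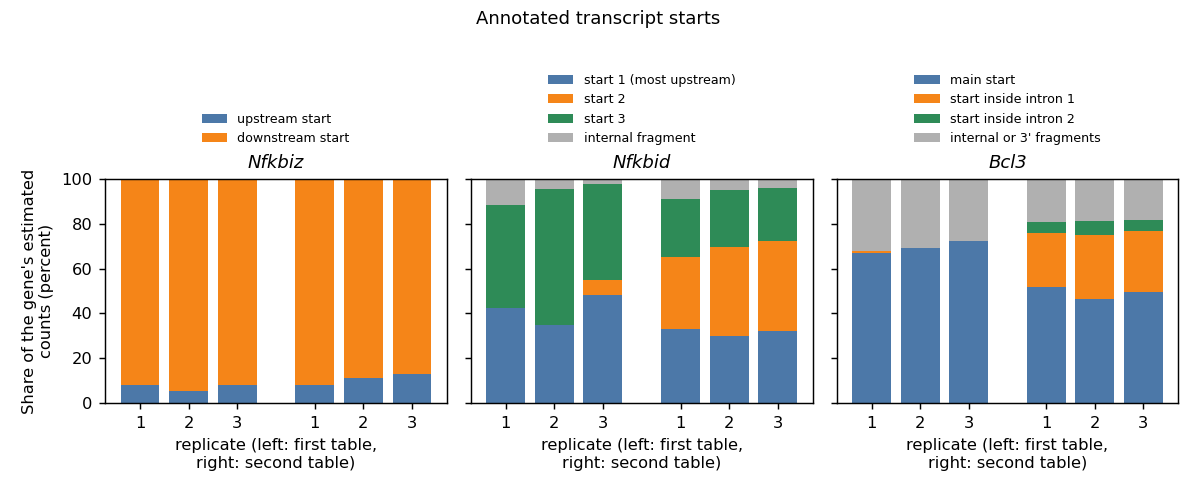
Share of each gene's estimated counts by annotated transcript start, one stacked bar per library, for the first (left 3 bars) and second (right 3 bars) transcript table. The downstream start of Nfkbiz takes 87.0% to 94.7% of the counts over the 6 bars, while the split for Nfkbid and Bcl3 differs between the tables.

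The promoters of the family were read because Nfkbia is a known NF-kB target and stood apart in these libraries. RefSeq promoter windows (GRCm38.p6, 250 bases before to 50 after the start) were matched for 5 of the 6 genes, with 7 windows in all, 3 of them for Nfkbid, and Nfkbiz was not matched. The 10-base NF-kB consensus was searched by its usual degenerate form on both strands. It was found in the windows of Nfkbia, Nfkbie and Bcl3, in the window of the middle start of Nfkbid, and in 4.51% of 32851 windows of all genes. A match is a description of these letters and not a bound site.
The 250 bases upstream of the Nfkbia start (chr12:55492648-55492897, minus strand, GRCm38.p6) are printed 5′ to 3′ with the match, which begins 29 bases before the start, in capitals: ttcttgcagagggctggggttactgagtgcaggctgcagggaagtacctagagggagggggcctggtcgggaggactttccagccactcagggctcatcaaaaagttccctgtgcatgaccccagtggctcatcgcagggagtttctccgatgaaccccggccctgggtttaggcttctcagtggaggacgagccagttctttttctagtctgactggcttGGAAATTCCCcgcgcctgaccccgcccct
The window of Nfkbie had its match 106 bases before the start, whereas in that of Bcl3 the match began 2 bases after the start. The middle start of Nfkbid had 2 matches, a number reached by 0.554% of all windows. The windows of the other Nfkbid starts and of Nfkbib held no match within these 300 bases.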

How the data were processed

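Chromatin-associated RNA of 3 libraries was analysed from 3 deposited tables per library. Per the file headers, the gene table and the first transcript table hold estimated counts, TPM and a posterior standard deviation of the count, a score of read assignment that the authors' program wrote. The second transcript table holds the authors' estimated counts and TPM. Per the deposited readme files the annotation was GENCODE M21 on mm10. Program, version and strandedness of counting are not given in the sources used. The members and gene lists were chosen with earlier results of these data known.

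Rows naming no annotated gene (0.351% to 1.16% of counts) were left out. Estimated counts were rounded, filtered with filterByExpr, scaled by TMM and fitted with an intercept only in edgeR 4.0.16 (R 4.3.3), with a prior of 0.5 CPM for ratios. DESeq2 1.42.0 size factors were an alternative. The steps were tested on simulated data. Named genes were the 6 members, the highest and lowest of each pathway list by mean TPM, and the 5 genes nearest to the member of widest range. Tnfaip3, the ratios of the Rel subunits, Gm16174, Gm16175 and Sirt2 were named after their values were seen. Depth limited precision most for Nfkbib, and PCR copies may be counted as separate reads.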

Additional observations from a re-analysis of the deposited data

How the results depend on the processing

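For 30 results, 203 alternatives were computed. All 6 genes stayed detected under every alternative except a minimum of 5 TPM, which 4 passed. Of 26 alternatives to the other summary values 21 moved by less than the spread, and 5 moved more. The nuclear minus classical level (1.32) was 2.06 in the second transcript table and 0.71 in scaled CPM. The median retained-intron share (41.1%) was 17.1% by estimated counts, and the median ratio of replicate 1 (0.69) was 1.07 in TPM. The last of the 5 was the median BCV (0.209), at 0.136 without replicate 1. It reached 0.221 without replicate 3 and 0.258 in the second transcript table. Directions reversed 6 times: Nfkbid minus Bcl3 (0.14) was -0.55 in the second table and ran from -0.0024 without replicate 1 to 0.26 without replicate 3, Bcl3 minus Nfkbiz (0.41) was -1.40 in scaled CPM, Nfkbie minus Nfkbib (0.42) was -0.38 in the second table, and the Bcl3 share minus the median of all genes (11.7 points) was -23.5 in the second table and -2.05 by estimated counts. Scaled CPM is not per length; the cause of the other changes was not tested. Genes were compared within each library, but no paired comparison of conditions was possible because there is 1 group. Depth limits Nfkbib most, with 51 to 78.5 counts.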
